A study of Homo sapiens with 36 samples.

Results

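The epithelial-mesenchymal state genes are 10 genes that mark how far a carcinoma cell stands from an epithelial towards a mesenchymal form. They were chosen by name, as the entries of CDH1, EPCAM, ESRP1, GRHL2, VIM, CDH2, ZEB1, ZEB2, SNAI2 and FN1 among the 66366 genes kept from each deposited file, and all 10 were found. The study sequenced RNA from 4 established human lung cancer lines of the non-small cell type, in 36 libraries. By EGFR genotype the lines were H3255 (L858R), H1975 (L858R together with T790M), H820 (exon 19 deletion together with T790M) and A549 (wild type). Each line received the RNA aptamer MinE07, the control aptamer C36 in an extended version, or vehicle. An aptamer is a nucleic acid that folds so as to bind a target, here EGFR for MinE07, and the vehicle was DPBS containing magnesium. Aptamers were given at 3 µM for 24 h to cells seeded at about 10000 per well, and the treatment medium of every group held 1% serum. A549 was kept in DMEM while the remaining lines were in RPMI, and each genotype is represented by 1 line, so genotype, line background and, for A549, medium cannot be told apart. Each of the 12 groups has 3 libraries, described in the series record as biologically independent experiments.

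Epithelial cells hold together through junctions built on E-cadherin and keep an apical and a basal side. In epithelial-mesenchymal transition, transcription factors of the ZEB and SNAIL families bind E-box elements in the control regions of epithelial genes and repress them, while the GRHL factors and the miR-200 family act in the other direction. In lung adenocarcinoma the mesenchymal form has been linked with reduced dependence on EGFR. Of the members, CDH1 encodes E-cadherin, EPCAM an epithelial adhesion molecule, ESRP1 an epithelial splicing regulator and GRHL2 a transcription factor of epithelial genes. VIM encodes the intermediate filament protein vimentin, CDH2 encodes N-cadherin, FN1 the matrix protein fibronectin, and ZEB1, ZEB2 and SNAI2 (also called SLUG) are the repressors.

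Levels are given in FPKM, fragments scaled by the length of the gene and by the mapped fragments of the library, so levels of different genes are per length. Between 13236 and 14267 genes were above 1 FPKM in a library, summed FPKM ran from 362928 to 449811, and relative depth, the only depth the files give, ran from 0.590 to 1.38 of the median library. The keratin genes KRT8, KRT18 and KRT19, markers of epithelial cells, were above 1 FPKM in every line. In vehicle, KRT19 was lowest in A549 at 4.14 FPKM, against 286, 421 and 167 FPKM in H3255, H1975 and H820. KRT8 and KRT18 were highest in A549, at 2978 and 2261 FPKM. The lung adenocarcinoma markers NKX2-1, NAPSA and SFTPB were all above 1 FPKM in H3255, only NKX2-1 was in H1975 and H820, and none was in A549, where they summed to 0.158 to 0.287 FPKM. Among 4 fibroblast markers, LUM stood at 37.3 FPKM in vehicle-treated H820, while PDGFRA, PDGFRB and DCN had means of 0.112, 0.129 and 0.00619 FPKM there. PDGFRB was higher in vehicle-treated H1975 (0.924 FPKM). The 4 markers summed to 35.7 to 46.0 FPKM in H820 against at most 1.41 FPKM in the other lines, and almost all of the H820 sum was LUM. The part of this LUM signal in the H820 values below was not tested.

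Promoter sequences show the element that the ZEB and SNAIL factors are known to bind. They are shown for CRB3 (a polarity gene), MIR200CHG (a host gene of miR-200 family members) and RAB25 (an epithelial trafficking gene), whose levels in the 4 lines follow below, and for VIM, the member that moved most with treatment. Each runs 5′ to 3′ over the 250 bases before the gene's start in RefSeq (GRCh38.p14), on the plus strand. Capitals mark the E-box CAGGTG or its reverse complement CACCTG. The positions are chr19:6464021-6464270 for CRB3, chr12:6962995-6963244 for MIR200CHG, chr1:156060910-156061159 for RAB25 and chr10:17227991-17228240 for VIM.
CRB3: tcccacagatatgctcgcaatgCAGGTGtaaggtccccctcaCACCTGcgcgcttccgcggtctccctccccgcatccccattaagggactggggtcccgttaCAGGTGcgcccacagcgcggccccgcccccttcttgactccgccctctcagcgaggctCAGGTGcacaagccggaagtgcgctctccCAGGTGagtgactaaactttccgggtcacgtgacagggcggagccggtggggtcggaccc
MIR200CHG: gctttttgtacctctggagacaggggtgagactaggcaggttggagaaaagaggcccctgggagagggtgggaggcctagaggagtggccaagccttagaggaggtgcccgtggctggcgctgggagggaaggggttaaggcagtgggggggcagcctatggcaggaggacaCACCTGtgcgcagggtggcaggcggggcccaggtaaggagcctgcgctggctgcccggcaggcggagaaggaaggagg
RAB25: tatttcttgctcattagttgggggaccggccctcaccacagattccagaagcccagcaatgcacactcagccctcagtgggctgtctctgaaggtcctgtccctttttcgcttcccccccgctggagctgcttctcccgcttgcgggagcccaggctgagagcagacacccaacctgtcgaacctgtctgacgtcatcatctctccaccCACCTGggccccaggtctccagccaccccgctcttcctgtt
VIM: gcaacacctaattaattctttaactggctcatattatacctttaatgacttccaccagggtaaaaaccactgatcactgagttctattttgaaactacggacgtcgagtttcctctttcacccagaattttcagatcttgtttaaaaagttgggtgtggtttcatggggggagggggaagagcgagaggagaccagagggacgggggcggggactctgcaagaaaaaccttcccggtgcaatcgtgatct
The CRB3 window holds 5 E-boxes, the MIR200CHG and RAB25 windows hold 1 each, and the VIM window holds 0. The element was found in 20.6% of the 27305 genes of the table (any listed start, 17.5% of 35116 promoters). Of 30 other epithelial genes, 17 matched the table and 12 of them had it. Of 30 other mesenchymal genes, 19 matched and 3 had it. Among the members, 5 matched the table, and ZEB1 had the element at 1 or more of its listed starts while VIM, CDH2, ZEB2 and FN1 had none. CDH1, EPCAM, ESRP1, GRHL2 and SNAI2 were not matched. A match describes the letters and is not evidence of binding.

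In vehicle, the 4 lines stood in different places on this axis, and the epithelial genes fell in the order H3255, H1975, H820 and A549 for 3 of the 4 epithelial members. H3255 had the highest level of all 4 epithelial members and the lowest of 5 of the 6 mesenchymal members. H1975 kept the epithelial genes at a lower level beside the highest VIM, SNAI2 and FN1. H820 had low epithelial genes beside CDH2 and both ZEB genes, and A549 had CDH1 and VIM with almost no ESRP1 or GRHL2. Replicates differed little: over the 87 of 120 gene and group combinations with a mean of at least 1 FPKM, the coefficient of variation had a median of 2.72% and reached 13.5% for EPCAM in vehicle-treated A549. Between lines most of the transcriptome differs, with 83.7% to 87.1% of 14572 tested genes called in the 6 line pairs, and the members' counts below are read against those shares.

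**Figure D1:**
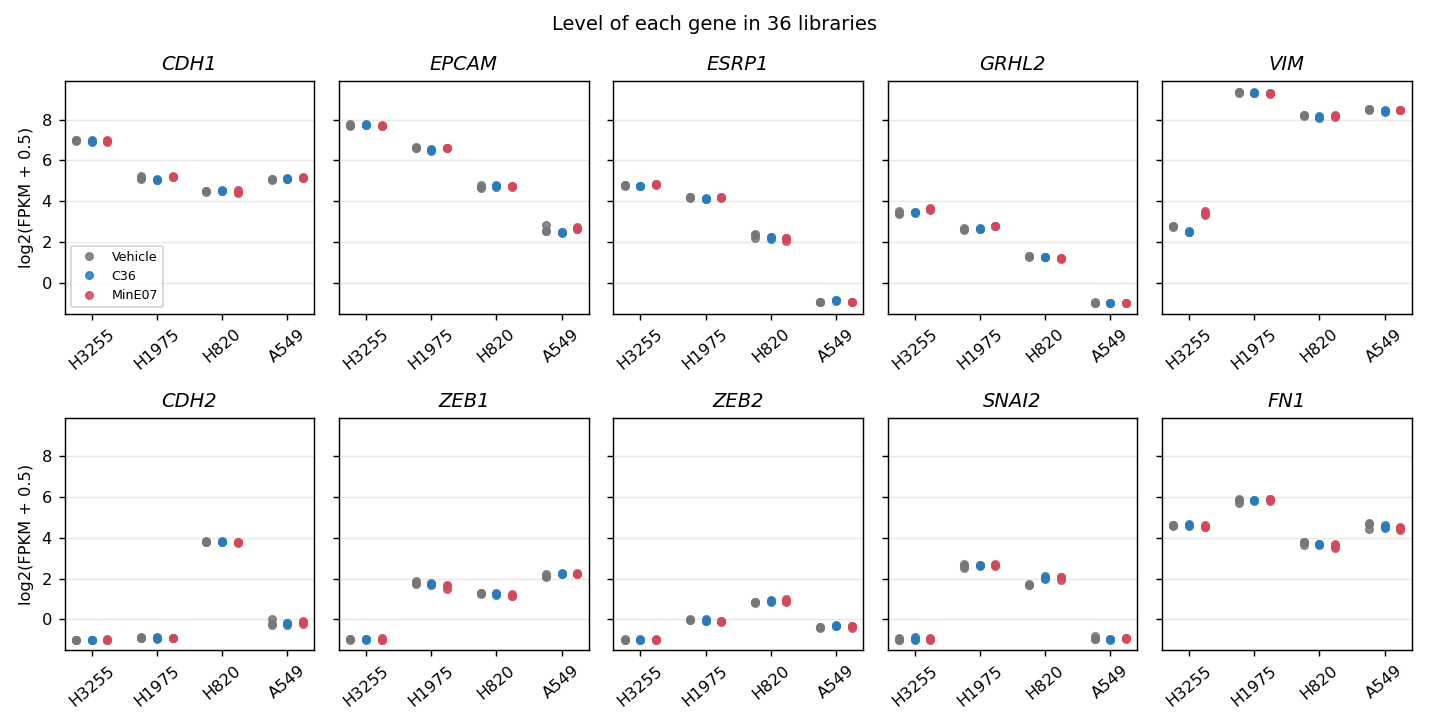
Level of each member in 36 libraries as log2(FPKM + 0.5), by cell line on the horizontal axis and by treatment in colour, 1 point per library. The 3 MinE07 libraries of H3255 lie above the C36 and vehicle libraries for VIM, yet far below the VIM level of the other lines.

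CDH1 (chr16:68737225-68835548, plus strand, protein coding, GENCODE annotation of GRCh38) was at 126, 128 and 127 FPKM in the 3 vehicle libraries of H3255. It was at 33.8, 34.7 and 36.6 FPKM in H1975, 32.6, 34.0 and 33.8 FPKM in A549, and 21.1, 22.2 and 22.3 FPKM in H820. H3255 lay above all others without overlap, and H820 lay below all others. H1975 and A549 overlapped, and their difference of 0.06 (log2, SE 0.032) did not pass the test (limma adjusted p = 0.0695). When libraries were rescaled to medians of ratios its sign turned and it passed (-0.12, adjusted p = 0.00231). Without H1975 vehicle replicate 1 it passed with the first sign (0.09, adjusted p = 0.0205). The order of H1975 and A549 thus depends on scaling and on single libraries. E-cadherin RNA was thus 5.81 times higher in the highest line than in the lowest, a smaller span than that of the other epithelial members.

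EPCAM in the vehicle libraries ran from 209 to 218 FPKM for H3255, from 96.3 to 99.5 FPKM for H1975, from 24.6 to 27.2 FPKM for H820 and from 5.34 to 6.71 FPKM for A549. No 2 lines overlapped, and the mean of H3255 was 36.9 times that of A549. ESRP1 was at 26.3, 26.9 and 27.7 FPKM in H3255, at 17.2, 17.9 and 17.98 FPKM in H1975, and at 4.57, 4.12 and 4.81 FPKM in H820. In A549 ESRP1 did not exceed 0.0160 FPKM in vehicle. This splicing regulator was therefore close to 0 in a line whose CDH1 libraries overlapped those of H1975. GRHL2 followed the same order, with 9.94, 11.05 and 10.3 FPKM in H3255, 5.45, 5.70 and 5.92 FPKM in H1975 and 2.00, 1.88 and 1.98 FPKM in H820. In A549 the highest vehicle library had 0.00908 FPKM of GRHL2. Every pair of neighbours in the order of EPCAM, ESRP1 and GRHL2 differed beyond its spread, with no overlap.

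VIM (chr10:17228259-17237593, plus strand, protein coding) separated H3255 from the rest. It was at 6.15, 6.29 and 6.29 FPKM in the vehicle libraries of H3255, against 295 to 302 FPKM in H820, 352 to 372 FPKM in A549 and 640 to 667 FPKM in H1975. The groups did not overlap, and all 6 line pairs differed (largest limma adjusted p = 1.80e-08, H820 against A549). H820 and A549, the nearest neighbours, differed by -0.28 (log2, SE 0.035).

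CDH2 was a feature of H820, with 13.4, 13.2 and 13.9 FPKM in vehicle. A549 had 0.349, 0.511 and 0.328 FPKM, H1975 had at most 0.0484 FPKM, and in H3255 CDH2 was listed at 0 in all 3 vehicle libraries. H820 lay above A549 by 3.97 (log2, SE 0.050). CDH2 passed the filter of that fit (mean 3.46 FPKM over the 36 libraries) only through H820. Its means over all treatments were 0.388 FPKM in A549, 0.0366 FPKM in H1975 and 0.000687 FPKM in H3255. A call of H820 against another line thus largely follows from the filter and adds nothing to the levels. The call between H3255 and H1975 (-0.12, limma adjusted p = 0.0338) compares values that are all near 0, and it was lost when any 1 of those 6 vehicle libraries was left out (adjusted p = 0.0511 to 0.0823).

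The repressors were spread unevenly over the lines. ZEB1 was at 3.77, 4.20 and 3.86 FPKM in vehicle-treated A549, 2.79, 3.16 and 2.96 FPKM in H1975 and 1.94, 1.92 and 1.87 FPKM in H820, with no overlap between these lines, and at most 0.00922 FPKM in H3255. ZEB2 was highest in H820, with 1.30, 1.32 and 1.25 FPKM, followed by 0.477 to 0.523 FPKM in H1975 and 0.253 to 0.265 FPKM in A549. Its highest vehicle library in H3255 had 0.0138 FPKM. ZEB2 fell under the filter of a mean of 1 FPKM over the 36 libraries and was tested in H820 only. SNAI2 was at 5.34, 6.02 and 5.72 FPKM in H1975 and at 2.88, 2.71 and 2.69 FPKM in H820. It did not exceed 0.0761 FPKM in A549 and 0.0295 FPKM in H3255, and those 2 lines were not told apart (-0.07, SE 0.052, limma adjusted p = 0.201). Thus A549 carried ZEB1 with little ZEB2 or SNAI2, H1975 carried ZEB1 and SNAI2, and H820 carried all 3 repressors at 1 FPKM or more.

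FN1 did not follow the other mesenchymal members. Its vehicle libraries were at 52.7, 60.3 and 58.3 FPKM in H1975, 23.8, 24.5 and 24.4 FPKM in H3255, 21.3, 25.2 and 25.7 FPKM in A549 and 12.2, 13.3 and 13.4 FPKM in H820. Fibronectin RNA was therefore lowest in H820, the line with the highest CDH2 and ZEB2, and 1.87 times higher in H3255, the line lowest in the other 5 mesenchymal members. H3255 and A549 overlapped and were not told apart (0.01, SE 0.060, limma adjusted p = 0.822).

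Of the 9 members tested in the vehicle fit, 9 were called between H3255 and H1975 (4 higher in H3255), 9 between H3255 and H820 (5 higher in H3255) and 7 between H3255 and A549 (4 higher in H3255). A further 9 were called between H1975 and H820 (8 higher in H1975), 8 between H1975 and A549 (6 higher in H1975) and 9 between H820 and A549 (5 higher in H820). The background shares were 86.1%, 86.3%, 87.1%, 83.7%, 84.6% and 85.2% in the same order, and the counts do not stand apart from them. These comparisons share their vehicle libraries. CDH2 is counted in them although it entered the fit only through H820.

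Averaged over the 4 epithelial and the 6 mesenchymal members on the log2(FPKM + 0.5) scale, the lines formed 4 separate groups of libraries whatever the treatment. The epithelial mean was highest for H3255 (5.70 to 5.78), followed by H1975 (4.58 to 4.71), H820 (3.10 to 3.23) and A549 (1.41 to 1.499). The mesenchymal mean ran from 0.52 to 0.71, 3.04 to 3.16, 3.26 to 3.31 and 2.25 to 2.37 in the same order of lines. The difference between the means was highest in H3255, at 5.08 to 5.20, and 1.48 to 1.65 in H1975. It was -0.17 to -0.03 in H820 and -0.94 to -0.76 in A549. These means describe the members and were not tested.

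**Figure D2:**
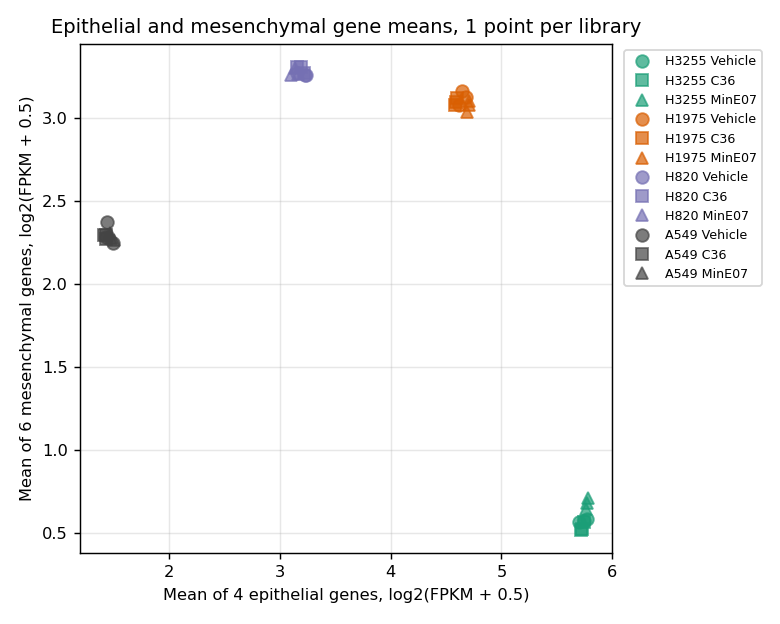
Mean of the 6 mesenchymal members against the mean of the 4 epithelial members, both as log2(FPKM + 0.5), 1 point per library, with lines in colour and treatments by symbol. The libraries of each line lie together and apart from the other lines, with H3255 at the epithelial end (5.70 to 5.78 against 0.52 to 0.71).

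Further genes of the same programmes were read from lists of 30 epithelial, 30 mesenchymal and 12 TGF-β pathway genes. These lists were chosen with earlier results of these data known. In vehicle, all 30 of the epithelial genes were at 1 FPKM or more in H3255, and 27, 27 and 12 of them were in H1975, H820 and A549, with median levels of 30.6, 10.5, 6.20 and 0.598 FPKM. H3255 was the highest line for 25 of the 30, and A549 the lowest for 20. Over the 14572 genes tested, 87.1% to 91.4% were at 1 FPKM or more and the medians ran from 5.47 to 6.27 FPKM. The widest ranges were those of PRSS8, a membrane serine protease, with means of 381 ± 10.3 (SD, n = 3) FPKM in H3255 and 0.0178 ± 0.0246 FPKM in A549, of the claudin gene CLDN4, with 555 ± 7.07 and 0.866 ± 0.488 FPKM, and of MAL2, a gene of apical transport, with 269 ± 6.77 and 0.140 ± 0.0178 FPKM. The genes whose promoters are shown above were chosen for display with their levels known. Between H3255 and A549, CRB3 went from 20.3 to 3.12 FPKM, RAB25 from 115 to 0.0208 FPKM and MIR200CHG from 2.58 to 0.0232 FPKM. In H1975 and H820, CRB3 was at 5.39 and 6.10 FPKM, RAB25 at 1.10 and 1.16 FPKM and MIR200CHG at 0.716 and 0.0381 FPKM. ELF3 and TJP3, named after their values were seen, also carry the element, TJP3 at 1 of its 2 listed starts, and were not lower in A549. The other matched genes with the element at 1 or more listed starts were CDS1, OCLN, DSP, SPINT1, CLDN7, JUP and AP1M2. Each of them was lower in A549 than in H3255. The epithelial transcription factor gene ELF3 was at 27.7 FPKM in H3255 and 58.8 FPKM in A549, and the junction gene TJP3 was at 4.65 and 4.82 FPKM. The matched epithelial genes without the element were CLDN4, CLDN3, GRHL1, EHF and LSR. All of these were lower in A549 than in H3255, CLDN4 as given above and CLDN3 with 113 and 0.770 FPKM. Any part of the element in these levels was not tested.

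Of the mesenchymal list, 13 of 30 genes were at 1 FPKM or more in H3255, and 21, 23 and 15 of them were in H1975, H820 and A549. H3255 was the lowest line for 20 of them, and H1975 and H820 were the highest for 15 and 8. SPARC, a matrix glycoprotein gene, was at 60.9 ± 0.746 FPKM in H1975 and 75.2 ± 0.811 FPKM in H820, against 0.0667 ± 0.0301 FPKM in H3255 and 0.239 ± 0.400 FPKM in A549. TNC, which encodes the matrix protein tenascin C, ran from 46.4 ± 2.80 FPKM in H1975 to 0.0393 ± 0.00349 FPKM in A549. The collagen gene COL6A1 ran from 48.6 ± 2.01 FPKM in H820 to 0.176 ± 0.0144 FPKM in H3255. By its medians of 0.598 and 0.921 FPKM A549 was thus low for both lists. The mesenchymal median was lower still in H3255 (0.676 FPKM), and it was 15.1 FPKM in H1975 and 11.5 FPKM in H820. A549 was nevertheless the highest line for 5 mesenchymal genes and the lowest for 6.

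**Figure D3:**
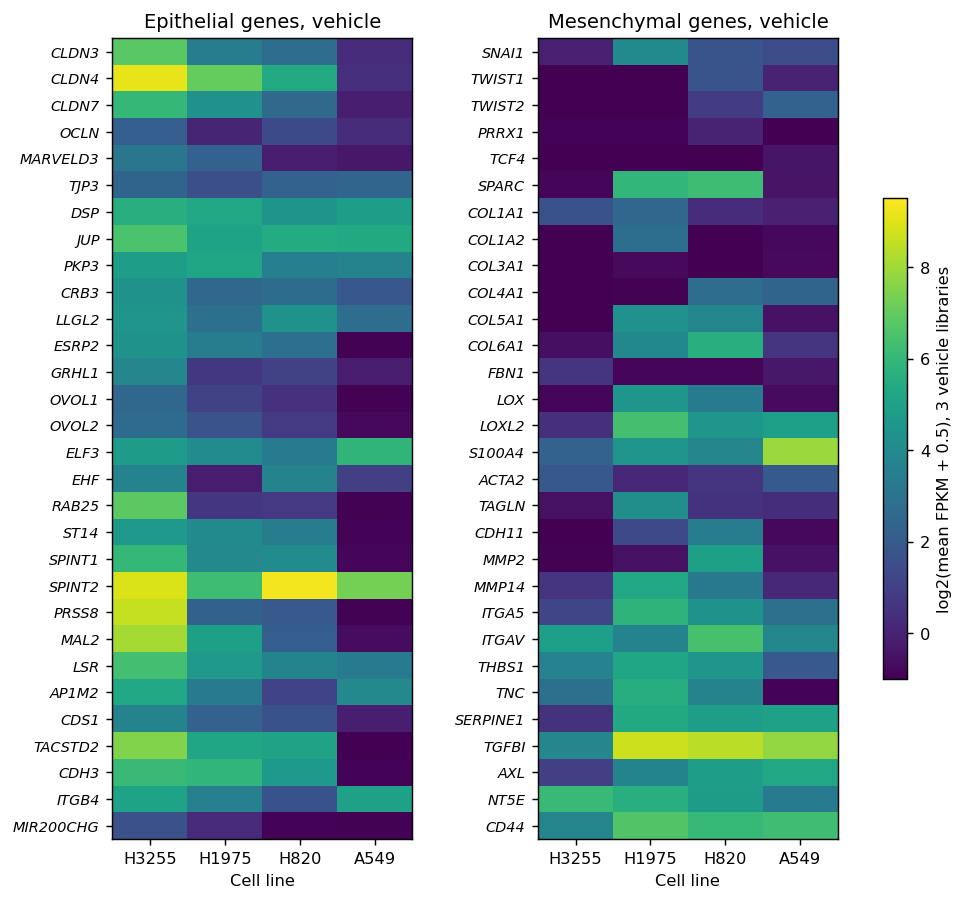
Mean level of 30 epithelial and 30 mesenchymal list genes in the 3 vehicle libraries of each line, as log2(mean FPKM + 0.5), with lines as columns and genes as rows. The epithelial genes are brightest in H3255, where 30 of 30 are at 1 FPKM or more, and darkest in A549 (12 of 30), while the mesenchymal genes are brightest in H1975 and H820 (21 and 23 of 30).

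TGF-β is a known inducer of the transition. All 12 of its pathway genes were at 1 FPKM or more in H1975, H820 and A549, and 10 were in H3255. H3255 was the lowest line for 7 of the 12 and the highest for 2, which are named here after their values were seen. These were the ligand gene TGFB1 (24.8 FPKM, against 9.53 to 20.1 FPKM in the other lines) and the repressor gene SKIL (14.1 FPKM, against 3.598 to 6.66 FPKM). The ligand gene TGFB2 was at 34.3 ± 1.38 FPKM in H820 and 0.462 ± 0.0805 FPKM in H3255, the signal transducer SMAD3 at 45.9 ± 1.57 FPKM in A549 and 4.37 ± 0.0905 FPKM in H3255, and the latency protein gene LTBP1 at 8.66 ± 0.274 FPKM in H820 and 1.19 ± 0.0651 FPKM in H3255.

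The genes most like CDH1 over the 12 group means were GUSB (lysosomal beta-glucuronidase), EGFR and SEPTIN5, with Pearson correlations of 0.997, 0.997 and 0.996. EGFR itself was at 419 FPKM in vehicle-treated H3255, 26.1 in H1975, 19.9 in A549 and 7.54 in H820. This was the order of the CDH1 means, in which H1975 and A549 change places with scaling. The genes most like VIM were C16orf74, the desmosomal cadherin gene DSG2 and GFPT2, an enzyme of the hexosamine pathway, with correlations of 0.996, 0.996 and 0.995. The 12 means come from 4 lines, so likeness is mostly an order of lines: 140 of 2170 genes compared exceeded 0.95 with CDH1 and 90 did with VIM.

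Within each line, MinE07 was set against C36, to see what the EGFR aptamer changes beyond a control aptamer, and each aptamer was set against vehicle. The comparisons within a line share their libraries and are given side by side. In H3255, VIM rose 1.96-fold with MinE07 against C36, and GRHL2 rose 1.13-fold. The other 4 tested members of H3255, namely CDH1, EPCAM, ESRP1 and FN1, did not pass the test.

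VIM in H3255 was at 5.16, 5.30 and 5.20 FPKM with C36 and at 9.51, 11.1 and 10.1 FPKM with MinE07, beside 6.15, 6.29 and 6.29 FPKM with vehicle. The 3 MinE07 libraries lay above all others, and the C36 libraries lay below vehicle. The mean with MinE07 was 1.96 times that with C36, a log2 change of 0.91 (SE 0.050, limma adjusted p = 6.95e-07). Against vehicle it was 1.64 times as high (log2 0.67, SE 0.050, adjusted p = 4.96e-06). Among the 2233 genes called higher with MinE07 than with C36, 26 had a larger change than VIM, and the median change was 0.24. C36 against vehicle gave -0.24 (adjusted p = 0.0789), which passed in a fit of all 36 libraries (adjusted p = 0.000148) and after medians of ratios (adjusted p = 0.0349). Even with MinE07, vimentin RNA in H3255 stayed far below the other lines, whose lowest library (269 FPKM) was 24.2 times the highest H3255 library (11.1 FPKM).

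VIM-AS1 is the antisense neighbour of VIM. Its level in H3255 was 1.22, 1.47 and 1.30 FPKM with MinE07, 1.09, 1.05 and 0.907 FPKM with C36 and 0.683, 0.804 and 1.03 FPKM with vehicle. The library kit keeps strand, but whether counting used it is not given in the sources used here, so reads of VIM and VIM-AS1 may not be separated. VIM-AS1 was lower than VIM in all 9 libraries, and its part in the VIM change was not tested.

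GRHL2 in H3255 was at 11.4, 12.1 and 11.9 FPKM with MinE07, 10.2, 10.6 and 10.4 FPKM with C36 and 9.94, 11.05 and 10.3 FPKM with vehicle. The MinE07 libraries lay above the other 6. The change was 0.17 against C36 (SE 0.043, limma adjusted p = 0.0102) and 0.17 against vehicle (SE 0.043, adjusted p = 0.0102). Of the genes called higher than with C36, 76.6% changed more than GRHL2. Thus an epithelial and a mesenchymal member rose in the same libraries. CDH1 stood at 122, 128 and 124 FPKM with MinE07 and 125, 128 and 119 FPKM with C36, which overlapped (0.01, SE 0.034, adjusted p = 0.879). ZEB1, ZEB2, SNAI2 and CDH2 remained at or below 0.0455 FPKM in all 9 H3255 libraries, under the filter for testing.

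In H3255, 2 of the 6 tested members were called between MinE07 and C36, where 36.7% of all 13429 tested genes were, and 2 were called against vehicle, where 38.6% were. For C36 against vehicle limma called 0 of 6 members, against a background of 0.305%. At an unadjusted p under 0.05 there was 1 of 6, with 15.9% of all genes. The fit of all 36 libraries and medians of ratios each called 1.

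**Figure D4:**
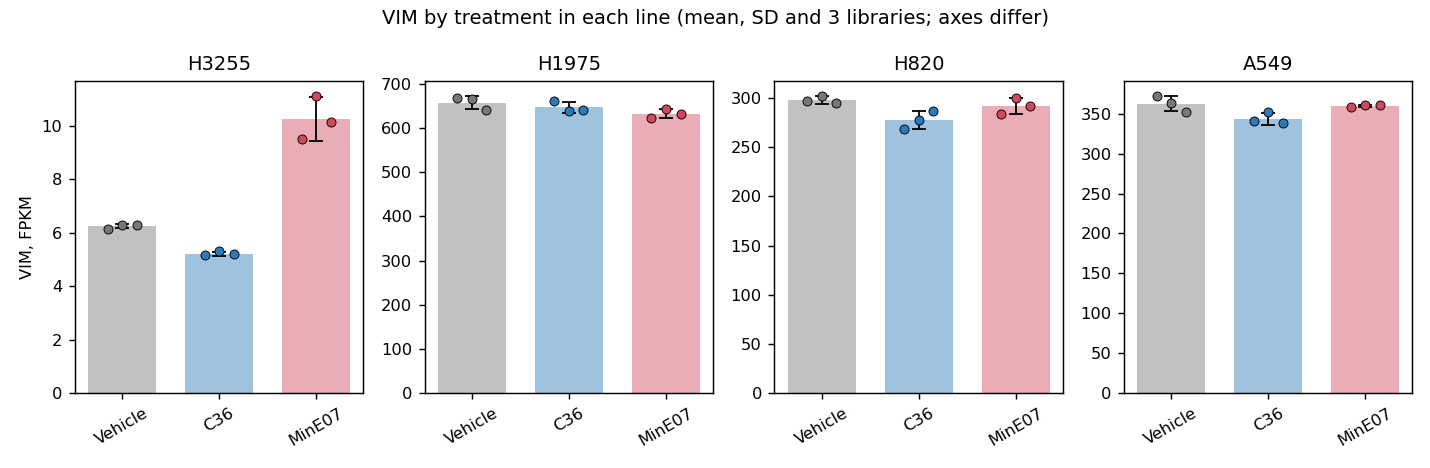
VIM level in FPKM by treatment in each line, with the mean (bar), SD (whisker) and 3 libraries (points), each panel with its own axis starting at 0. The MinE07 libraries of H3255 (9.51 to 11.1 FPKM) lie above C36 (5.16 to 5.30 FPKM) and vehicle (6.15 to 6.29 FPKM), while the treatments of the other lines lie close together.

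In H1975, 3 epithelial members were slightly higher with MinE07 than with C36, and none of the mesenchymal members passed the test in the H1975 fit. CDH1 was at 35.7, 35.98 and 36.7 FPKM with MinE07, 32.8, 32.9 and 33.4 FPKM with C36 and 33.8, 34.7 and 36.6 FPKM with vehicle. The C36 libraries lay below those of MinE07 and of vehicle without overlap, and vehicle overlapped MinE07. The change was 0.13 against C36 (SE 0.033, limma adjusted p = 0.0232) and 0.04 against vehicle (adjusted p = 0.367). EPCAM was at 98.0, 97.6 and 96.1 FPKM with MinE07, 92.9, 89.0 and 91.0 FPKM with C36 and 99.5, 96.3 and 96.4 FPKM with vehicle. Its change was 0.10 against C36 (SE 0.028, adjusted p = 0.0367) and -0.002 against vehicle (SE 0.028, adjusted p = 0.971). The MinE07 libraries thus stood with vehicle and the C36 libraries lay below both. The call against C36 was lost in the fit of all 36 libraries (adjusted p = 0.177). ESRP1 libraries with C36 (16.51 to 17.16 FPKM) also lay below MinE07 (17.55 to 18.15 FPKM) and vehicle (17.19 to 17.98 FPKM). The ESRP1 change of 0.09 against C36 did not pass in the H1975 fit (SE 0.031, adjusted p = 0.0734). It passed after medians of ratios (adjusted p = 0.0423).

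GRHL2 in H1975 was at 6.46, 6.39 and 6.47 FPKM with MinE07, 5.72, 5.78 and 6.03 FPKM with C36 and 5.45, 5.70 and 5.92 FPKM with vehicle. The MinE07 libraries lay above both other groups. The change was 0.13 against C36 (SE 0.039, limma adjusted p = 0.0432) and 0.17 against vehicle (SE 0.039, adjusted p = 0.0135). ZEB1 was at 2.60, 2.32 and 2.72 FPKM with MinE07, 2.75, 2.87 and 2.90 FPKM with C36 and 2.79, 3.16 and 2.96 FPKM with vehicle. The MinE07 libraries lay below the others by a narrow margin. ZEB1 changed by -0.19 against vehicle (SE 0.061, adjusted p = 0.0495) and by -0.13 against C36 (SE 0.061, adjusted p = 0.155). Against C36, ZEB1 passed in the fit of all 36 libraries (adjusted p = 0.0379). Its antisense partner ZEB1-AS1 was at 1.38 to 1.70 FPKM with MinE07 and 1.78 to 1.96 FPKM with vehicle, and strand use in counting is not given, so its part in the ZEB1 value was not tested. VIM at 622 to 642 FPKM with MinE07 and 639 to 660 FPKM with C36 overlapped (-0.03, SE 0.031, adjusted p = 0.527), as did SNAI2 and FN1.

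Of 8 tested members in H1975, 3 were called between MinE07 and C36 (background 19.9% of 14183 genes) and 2 between MinE07 and vehicle (background 23.7%). For C36 against vehicle limma called 0 of 8 (background 0.233%), and the fit of all 36 libraries also called 0. At an unadjusted p under 0.05 there were 3 of 8, with 14.3% of all genes. The 3 calls against C36 were small among the 1260 genes called higher, since 91.6% to 99.1% of these changed more, and they hung on single libraries. CDH1 was lost without C36 replicate 1 or 2 or MinE07 replicate 2 or 3 (adjusted p = 0.0520 to 0.0814). EPCAM was lost without any of the 6 libraries except C36 replicate 1 (adjusted p = 0.0720 to 0.137), and GRHL2 without any of the 6 (adjusted p = 0.0525 to 0.132). ZEB1 against vehicle was lost without MinE07 replicate 1 or 2 or vehicle replicate 2 or 3 (adjusted p = 0.0835 to 0.153), while GRHL2 against vehicle passed without each library in turn.

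In H820, SNAI2 rose with both aptamers against vehicle and did not differ detectably between them. It was at 2.88, 2.71 and 2.69 FPKM with vehicle, 3.85, 3.41 and 3.58 FPKM with C36 and 3.27, 3.77 and 3.68 FPKM with MinE07. All 6 aptamer libraries lay above the 3 vehicle libraries, and the aptamers overlapped. The change was 0.32 for MinE07 against vehicle (SE 0.059, limma adjusted p = 0.0212), 0.33 for C36 against vehicle (SE 0.059, adjusted p = 0.0176) and -0.02 for MinE07 against C36 (SE 0.059, adjusted p = 0.949). Both comparisons use the same vehicle libraries. The call for MinE07 was lost without MinE07 replicate 2 or 3 or vehicle replicate 2 or 3 (adjusted p = 0.0656 to 0.0847), and that for C36 without C36 replicate 1 or 3 or vehicle replicate 2 or 3 (adjusted p = 0.0504 to 0.0816).

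All 10 members were tested in H820. Limma called 0 of them between MinE07 and C36, where 0.0364% of 13753 genes were called. At an unadjusted p under 0.05 there was 1 of 10 (VIM, 0.07), with 10.2% of all genes. Limma called 1 of 10 for MinE07 against vehicle (background 3.02%) and 1 of 10 for C36 against vehicle (background 2.85%). At an unadjusted p under 0.05 there were 4 and 2 of 10, with 18.7% and 18.4% of all genes. GRHL2 was at 1.78, 1.78 and 1.74 FPKM with MinE07, 1.93, 1.92 and 1.89 FPKM with C36 and 2.00, 1.88 and 1.98 FPKM with vehicle. Its MinE07 libraries lay below both other groups, opposite in sign to H3255 and H1975. The changes of -0.09 against C36 and -0.11 against vehicle did not pass (limma adjusted p = 0.531 and 0.202). CDH2 was at 13.0, 13.2 and 13.3 FPKM with MinE07, 13.4, 13.7 and 13.6 FPKM with C36 and 13.4, 13.2 and 13.9 FPKM with vehicle, and its changes lay between -0.04 and 0.01 (adjusted p = 0.563 to 0.940). ZEB2, at 1.25 to 1.47 FPKM over the 9 libraries, also overlapped between treatments. ESRP1 was at 4.07, 4.02 and 3.70 FPKM with MinE07 and 4.57, 4.12 and 4.81 FPKM with vehicle. These groups did not overlap, but the change of -0.17 did not pass in the H820 fit (SE 0.058, adjusted p = 0.142) and passed in the fit of all 36 libraries (adjusted p = 0.00798).

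In A549, 5 members were tested and limma called 0 of them in each comparison. EPCAM was at 6.16, 5.72 and 5.77 FPKM with MinE07, 5.03, 4.85 and 5.05 FPKM with C36 and 6.71, 5.36 and 5.34 FPKM with vehicle. The C36 libraries lay below both other groups. MinE07 against C36 gave 0.22 (SE 0.076, adjusted p = 0.386) and C36 against vehicle gave -0.20 (SE 0.076, adjusted p = 0.157). Both passed in the fit of all 36 libraries (adjusted p = 0.0229 and 0.00691). The background shares were 0% between MinE07 and C36, 0.216% between MinE07 and vehicle and 6.0% between C36 and vehicle, of 13425 genes. At an unadjusted p under 0.05 there were 1, 0 and 2 of 5 members in the same order, with 10.8%, 13.9% and 23.5% of all genes. VIM was at 358, 360 and 361 FPKM with MinE07 and 340, 352 and 338 FPKM with C36, which did not overlap, and the change of 0.07 did not pass (SE 0.036, adjusted p = 0.545). ESRP1 in A549 was at 0.0497, 0.0286 and 0.0568 FPKM with C36 and at most 0.0228 FPKM with MinE07 or vehicle, all near 0 and not tested.

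**Figure D5:**
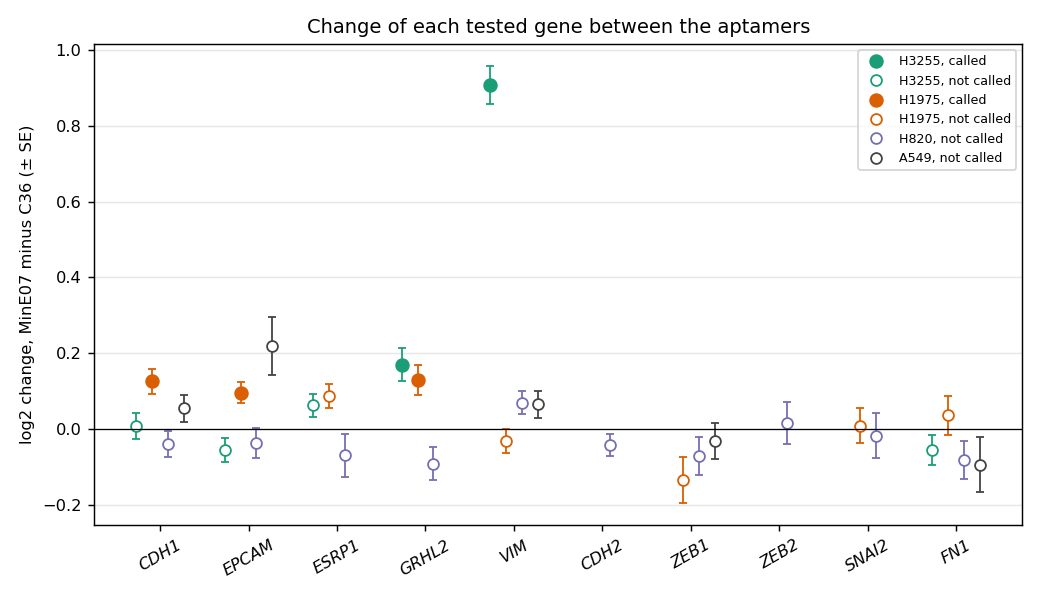
Change of each tested member between MinE07 and C36 in log2 units with its SE, by line in colour, with filled points for an adjusted p under 0.05. VIM in H3255 (0.91) stands far from all other values, which lie between -0.13 and 0.22.

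Interaction terms over all 36 libraries tested whether the lines differed in the change between the aptamers. The VIM change in H3255 exceeded that in A549 by 0.84 (SE 0.050, limma adjusted p = 4.92e-13) and that in H1975 by 0.94 (SE 0.050, adjusted p = 5.88e-14). The GRHL2 change in H3255 was not told apart from that in H1975 (0.04, SE 0.049, adjusted p = 0.660). Its term against A549 was 0.17 (SE 0.049, adjusted p = 0.0121, and 0.0656 with a pseudocount of 0.1). GRHL2 did not exceed 0.00908 FPKM in A549 and failed the filter there, so this term restates the change in H3255. EPCAM changed by 0.27 less in H3255 than in A549 (-0.27, SE 0.070, adjusted p = 0.00439), while its change passed the test in neither line. Between H3255 and A549 3 of 9 members were called (background 25.2%), and between H3255 and H1975 1 of 9 (background 15.2%). Limma called 0 of 9 for H1975 against A549 (background 12.6%) and 0 of 9 for H820 against A549 (background 0.323%). At an unadjusted p under 0.05 there were 2 of 9 in each, with 26.2% and 12.3% of all genes. For H1975 against A549, medians of ratios called 2 (ESRP1 and GRHL2) and a pseudocount of 0.1 called 1 (ESRP1). In A549 these genes did not exceed 0.0568 FPKM (ESRP1) and 0.00908 FPKM (GRHL2). The terms share the A549 or the H3255 libraries. Some of the 9 members were under the filter in a line compared. In A549 these were ESRP1, GRHL2, SNAI2 and CDH2, with means over all treatments of 0.0274, 0.00340, 0.0238 and 0.388 FPKM. In H1975 it was CDH2, and in H3255 they were CDH2, ZEB1 and SNAI2. Such terms compare values near 0 or restate the change of the other line, so the counts are not read as a result.

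The wider lists moved in both directions in H3255. Of 30 epithelial genes, 10 rose and 5 fell with MinE07 against C36 (median 0.06, with -0.01 over all genes; background 16.6% higher and 20.0% lower). TJP3 rose from 4.27 ± 0.244 to 5.90 ± 0.385 FPKM (0.42, limma adjusted p = 0.000664). OVOL2, a repressor of ZEB1, rose from 5.57 ± 0.168 to 7.48 ± 0.714 FPKM (0.39, adjusted p = 0.00156). Its relative OVOL1 fell from 5.24 ± 0.237 to 3.54 ± 0.201 FPKM (-0.51, adjusted p = 3.94e-05), and the integrin gene ITGB4 fell from 33.3 ± 1.23 to 27.8 ± 1.25 FPKM (-0.25, adjusted p = 0.000740). All 4 kept their sign and passed against vehicle.

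Of 13 tested mesenchymal genes in H3255, 2 rose and 3 fell (median 0.05, background 16.6% higher and 20.0% lower). FBN1, the gene of the microfibril protein fibrillin 1, rose from 1.09 ± 0.0199 to 1.70 ± 0.0585 FPKM (0.47, limma adjusted p = 0.000410), and S100A4, a calcium-binding protein gene, from 4.62 ± 0.440 to 5.28 ± 0.228 FPKM (0.18, adjusted p = 0.0453). The matrix gene TNC fell from 6.23 ± 0.145 to 5.08 ± 0.201 FPKM (-0.27, adjusted p = 0.000460) and THBS1, which encodes thrombospondin 1, from 9.71 ± 0.581 to 8.28 ± 0.416 FPKM (-0.22, adjusted p = 0.00540). The count was 3 without C36 replicate 3. The rise of VIM was thus not shared by most of the list.

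Of 10 tested TGF-β pathway genes in H3255, 4 fell and 1 rose (median -0.12, background 20.0% lower and 16.6% higher). The receptor gene TGFBR2 fell from 21.1 ± 0.248 to 15.4 ± 0.625 FPKM (-0.45, limma adjusted p = 7.19e-06), and the ligand gene TGFB1 from 25.0 ± 0.737 to 20.5 ± 0.494 FPKM (-0.28, adjusted p = 0.000139). SMAD3 rose from 4.04 ± 0.128 to 4.45 ± 0.201 FPKM (0.13, adjusted p = 0.0453), but not against vehicle (0.02, adjusted p = 0.694).

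In H1975, 15 of 27 tested epithelial genes rose with MinE07 against C36 and 0 fell (median 0.15, with -0.01 over all genes). The background was 8.88% higher and 11.1% lower. The list was chosen with earlier results of these data known, so the excess over the background is not independent support. TJP3 rose most, from 2.00 ± 0.192 to 3.92 ± 0.123 FPKM (0.82, limma adjusted p = 7.85e-05). The polarity gene LLGL2 rose from 6.57 ± 0.185 to 10.1 ± 0.571 FPKM (0.58, adjusted p = 7.42e-05). Against vehicle 11 rose and 0 fell (background 10.8% higher and 12.9% lower). The count of 15 was 8 without C36 replicate 1, 10 without C36 replicate 2 or 3, and 8 when the filter on low values was removed.

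Of 21 tested mesenchymal genes in H1975, 7 rose and 6 fell (median 0.03). Together 13 were called, where 19.9% of all genes were. The background was 8.88% higher and 11.1% lower, for this list and for the TGF-β list below. The calcium-binding protein gene S100A4 rose from 21.7 ± 1.59 to 31.4 ± 2.91 FPKM (0.52, limma adjusted p = 0.00816), and the collagen gene COL1A2 from 6.78 ± 0.644 to 8.97 ± 0.571 FPKM (0.38, adjusted p = 0.00415). The ectonucleotidase gene NT5E fell from 52.0 ± 1.16 to 37.1 ± 0.344 FPKM (-0.48, adjusted p = 2.97e-05), and the cadherin gene CDH11 from 2.10 ± 0.135 to 1.40 ± 0.0680 FPKM (-0.45, adjusted p = 0.000698). Of 12 TGF-β pathway genes 4 rose, among them SKIL, a repressor of the pathway (0.25, adjusted p = 0.0141), and TGFB2 (0.18, adjusted p = 0.00875), which did not differ from vehicle by the test (-0.02, adjusted p = 0.712). The count of 4 was 2 without MinE07 replicate 1, and 1 without C36 replicate 2, without MinE07 replicate 3 or without the filter.

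In H820 and A549, limma called 0 genes of any of the 3 lists between MinE07 and C36. At an unadjusted p under 0.05 there were 8 of 27 epithelial, 3 of 24 mesenchymal and 1 of 12 TGF-β genes in H820, with 10.2% of all genes. In A549 there were 1 of 12, 2 of 15 and 4 of 12, with 10.8% of all genes. The fit of all 36 libraries called 1 TGF-β gene in A549. The medians of the lists lay between -0.000267 and 0.05 in both lines.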

How the data were processed

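Per the labels' protocols, poly-A RNA was prepared with a stranded kit and sequenced as pairs of 100 bases. The authors deposited 1 FPKM value per gene and library, and the submitters' processing notes name HISAT2, Cuffdiff and GRCh38.p12, with no versions, while the annotation is not given in the sources used here. Of each file's entries 66366 named genes were kept. The files hold no counts, so only relative depth was computed, from the steps between low FPKM values, and no counting interval is given.

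Values were analysed as log2(FPKM + 0.5) with limma 3.58.1 and statmod 1.5.0 under R 4.3.3, using trend and robust moderation, over genes with a mean of at least 1 FPKM in the libraries of the fit. Treatments were compared in 4 fits of 9 libraries, 1 per line, and lines and interaction terms in 1 fit of all 36. A gene was called at a two-sided Benjamini-Hochberg adjusted p under 0.05 over all genes tested. Changes are on the log2(FPKM + 0.5) scale and understate those of low genes. The script was tested on simulated data. Figures used matplotlib 3.10.9 in Python 3.11.15 (numpy 2.4.6, pandas 2.3.3).

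The members and gene lists were chosen with earlier results of these data known. All 10 members are named. Of each list, up to 2 called genes per direction and line with the largest non-overlapping change between MinE07 and C36 are named, the 3 with the widest range over lines in vehicle, and the 3 genes most correlated with CDH1 and with VIM among those spanning at least 3 log2 units. Other names were chosen after their values were seen. Deviations from the group mean were correlated between libraries of the same replicate number. Over 36 pairs the correlations ran from -0.16 to 0.24, with a median of -0.016 and 8 over 0.1. In H820 they were 0.14, 0.14 and 0.20 for replicate 1, and in H3255 both extremes were found. No pairing was used in the main fits, and a replicate block was run as an alternative. Alternatives were pseudocounts of 0.1 and 1, no filter, medians of ratios, a replicate block, numbered gene copies left out, a fit of all 36 libraries, a fit of the 12 vehicle libraries, line means over 3 treatments, and each library left out.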

Additional observations from a re-analysis of the deposited data

Results flagged for a closer look

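Lines differed in the change from C36 to MinE07 for VIM and EPCAM, by interaction terms in limma over 36 libraries. For VIM the difference was 0.84 (log2) for H3255 minus A549 and 0.94 for H3255 minus H1975. For GRHL2 the term was 0.17 for H3255 minus A549, but GRHL2 is near 0 in A549 and was not tested there, so the term restates the change in H3255. It was lost with a pseudocount of 0.1 (0.16, adjusted p = 0.0656). For EPCAM it was -0.27 for H3255 minus A549, with changes of -0.05 in H3255 and 0.22 in A549 that did not pass in their own fits.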

How the results depend on the processing

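The VIM and GRHL2 changes in H3255 passed with their sign under every alternative run (VIM against C36 0.85 to 0.96, GRHL2 0.15 to 0.19). Of 143 alternative values of called changes within lines, 105 stayed on their side of the threshold and 38 lost their call, and 9 of 714 did between lines. With a pseudocount of 0.1, 1 member (ESRP1, near 0 in A549) was called for H1975 against A549 in the interaction (0 reported). Without the filter, the counts in H1975 against C36 were 0 members (3 reported), 8 epithelial genes (15) and 1 TGF-β gene (4), with 1 member against vehicle (2), and in H820 0 members (1 reported) for each aptamer against vehicle. Medians of ratios called 1 member for C36 against vehicle in H3255 (0 reported). For the H1975 against A549 interaction they called 2 (0 reported), ESRP1 and GRHL2, both near 0 in A549. They also turned CDH1 in vehicle, H1975 minus A549, to -0.12, which passed (limma adjusted p = 0.00231). This scaling moved the median of all genes by 0.12, -0.15 and -0.16 in the pairs of H1975 with H3255, H820 and A549. The fit of all 36 libraries called 1 member for C36 against vehicle in H3255 (0 reported), 2 for MinE07 against vehicle in H820 (1), and in A549 1 member and 1 TGF-β gene against C36 and 1 member for C36 against vehicle (0 each).

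Same-numbered libraries are not known to be paired. With a replicate block, members called fell to 1 (2 reported) for MinE07 against vehicle in H1975, where ZEB1 was lost (adjusted p = 0.0776), and to 0 (1 reported) for each aptamer against vehicle in H820, where SNAI2 was lost (adjusted p = 0.0663 and 0.0601). GRHL2 between MinE07 and C36 in H1975 was lost too (adjusted p = 0.0570).

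With each library left out, the counts against C36 ran as follows. In H3255 they were 2 to 2 members, 13 to 15 epithelial, 3 to 5 mesenchymal and 4 to 5 TGF-β genes. In H1975 they were 0 to 1 members, 8 to 12 epithelial, 11 to 14 mesenchymal and 1 to 4 TGF-β genes. Members called against vehicle ran from 1 to 2 for MinE07 in H1975 and from 0 to 1 for each aptamer in H820, and in the interaction of H3255 with H1975 from 1 to 2. FPKM without counts limits what can be said of members near 0.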

Other observations

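CDH2 lies on chromosome 18 beside the desmosomal cadherin genes, which encode further cell adhesion proteins, and these were looked at after their values were seen. Of the 11 protein-coding genes between KCTD1 and B4GALT6, 4 reached a mean of 1 FPKM in a line other than H3255, namely CDH2, DSC2, DSC3 and DSG2. None of the 4 exceeded 0.00905 FPKM in any of the 9 H3255 libraries. DSG2, the main desmoglein gene of simple epithelia, had a mean of 45.1 FPKM over the 9 libraries of H1975, 25.1 FPKM in H820 and 24.6 FPKM in A549, and it was listed at 0 in 7 of the 9 H3255 libraries. DSC2 had means of 2.11 FPKM in H1975, 2.38 FPKM in H820 and 0.667 FPKM in A549. DSC3 had 2.27 FPKM in A549 and was also near 0 in H1975 and H820 (0.00323 and 0.00461 FPKM). Within the same interval AQP4 was highest in H3255, with 0.474 to 1.31 FPKM in H3255, 0.276 to 0.595 FPKM in H820, at most 0.0429 FPKM in A549 and 0 in all 9 libraries of H1975. The flanking gene KCTD1 was at 1.96 to 2.78 FPKM in H3255, and B4GALT6 was at 0.411 to 0.640 FPKM. The most epithelial line by the members thus had almost no RNA of DSG2 and DSC2, desmosomal cadherin genes with RNA in each other line. Its desmosomal plaque genes DSP and JUP stood at 49.3 and 91.5 FPKM in vehicle. The reason was not tested.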
